A study of Mus musculus with 6 samples.

Results

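A set of 9 genes of amyloid processing and Alzheimer risk was followed in bone marrow derived monocytes (BMDM) and brainstem microglia (BSM), the resident macrophage-like cells of the brain. The set holds App, Aplp2, Psen2, Adam10, Bin1, Picalm, Inpp5d, Sorl1 and Grn, that is, 9 of the 35237 genes with an FPKM value (sequenced fragments scaled by transcript length and by the mapped reads of the library), all of which were also found by symbol among the 36536 entries of a second quantification of the same libraries, ALEXA-Seq. There were 6 RNA-Seq libraries, 3 of each cell type, each made from sorted cells pooled over a set of C57BL/6 mice at 6 weeks of age. BMDM were gated as CD11b+ CD45high CD115+ Ly6G- cells of bone marrow and BSM as CD11b+ CD45low CD115low Ly6G- cells of brainstem. Per the labels, replicate 1 of each cell type came from male mice and replicates 2 and 3 from female mice (the text of the study names male mice), the labels name no treatment, allele or transgene, and the RNA was amplified before sequencing. In these bulk libraries fewer cells of a type and less RNA per cell cannot be told apart.

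App encodes the amyloid precursor protein and Aplp2 a close relative of it. Adam10 encodes the main alpha-secretase, which sheds the ectodomain of the precursor without releasing amyloid-beta, whereas beta-secretase and then gamma-secretase, of which Psen2 encodes a catalytic subunit, release the peptide. Sorl1 encodes a sorting receptor that carries the precursor between the Golgi and endosomes with the help of the retromer coat, Bin1 encodes a membrane-bending adaptor of endocytosis, and Picalm encodes a clathrin assembly protein. Inpp5d encodes SHIP1, an inositol phosphatase of blood cells that dampens signalling from immune receptors, and Grn encodes progranulin, a secreted and lysosomal protein. Human variants near several of these genes are associated with the risk of Alzheimer's disease or of frontotemporal dementia.

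The defining markers went with the labels. Summed FPKM of 10 microglial markers lay between 907 and 1028 in the BSM libraries and between 36.7 and 41.0 in the BMDM libraries, and that of 10 monocyte markers between 6.31 and 7.71 in BSM and between 1992 and 3569 in BMDM. Summed FPKM over all genes came to between 163199 and 194184 in BMDM but between 68288 and 75021 in BSM. The median log2 fold change of all 6364 genes tested was 0.81 towards BMDM on the values as deposited, and every direction below is to be read against that shift. BSM replicate 1 stood apart. In it, 472 of the genes tested were listed at 0, against 51 to 115 in the other libraries, 7.45% of them were at least 3 times and 28.5% at most 1/3 of the mean of BSM replicates 2 and 3. The RNA assessment of the study gave the RNA of that library the lowest integrity and yield of all, and the part of this in the results was not tested. BMDM replicate 2 held the highest summed FPKM of 10 granulocyte markers (518, against 61.0 and 103 in the other BMDM libraries and at most 0.09 in BSM) and of 8 erythroid markers (129, against 19.6 and 29.7, and at most 0.34 in BSM), and the part of these transcripts in the results was not tested.

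On the values as deposited, Sorl1, Aplp2 and App were higher in BMDM, and Bin1, Inpp5d and Picalm were higher in BSM. Adam10 and Grn did not pass the test, and Psen2 was too low to be tested. A gene was called where limma gave an adjusted p-value under 0.05 on log2(FPKM + 1), among genes reaching an FPKM of 3 in at least 1 library, and this held for 6 of the 8 members tested. Bin1, counted among them, reached that FPKM in BSM libraries alone. Over all genes tested 54.5% were called, 45.3% as higher in BMDM and 9.22% as higher in BSM, so that the 3 members called in each direction stand against a background that leans strongly to BMDM. In ALEXA-Seq the same 6 members were called in the same directions, where 47.9% of all genes tested were called, 37.1% towards BMDM and 10.9% towards BSM. The median log2 fold change of the 8 members was -0.17 by FPKM, beside 0.81 over all genes. Without BSM replicate 1, Adam10 was called as well by FPKM (adjusted p = 0.049), which gave 3 members towards BMDM (50.2% of all genes) and 4 towards BSM (11.6%). In ALEXA-Seq without that library Adam10 was not called (adjusted p = 0.058), and 3 members were called in each direction.

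**Figure D1:**
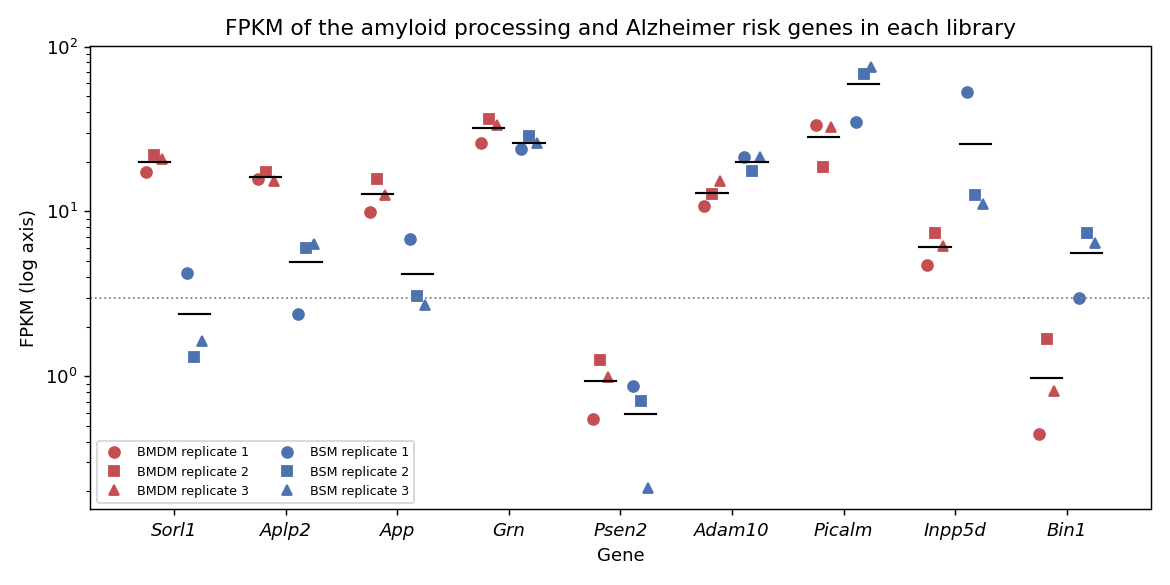
FPKM (log axis) of each of the 9 genes in the 3 BMDM libraries (red) and the 3 BSM libraries (blue), with a marker shape for each replicate number, a black bar for the group mean and a dotted line at the FPKM of 3 required for testing. Sorl1, Aplp2 and App lie higher in BMDM, Bin1, Inpp5d, Picalm and Adam10 lie higher in BSM without overlap, and Inpp5d in BSM replicate 1 (53.2) stands far above the other BSM libraries.

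Sorl1 showed the widest difference of the set on the values as deposited, whereas by FPKM Inpp5d and Bin1 differed more under each of the 3 scalings described below. Its FPKM was 17.3, 21.9 and 20.7 in BMDM replicates 1 to 3 and 4.21, 1.301 and 1.63 in BSM replicates 1 to 3. The BMDM libraries were close to each other and all far above the BSM libraries, among which replicate 1 was the highest. The means of 20.0 ± 2.38 and 2.38 ± 1.59 (SD, n = 3) differ 8.40-fold, and the log2 fold change was 2.73 (SE 0.34, adjusted p = 4.8e-04). In ALEXA-Seq it was 3.17 (SE 0.48, adjusted p = 0.0020). Without BSM replicate 1 the ratio of the means was 13.7. The gene spans chr9:41772803-41932380 (mm9), and an annotated gene inside this span (ENSMUSG00000086360) was itself at up to 2.06 FPKM in BMDM and 0.45 in BSM. As the sources used here name no counting by strand, reads of the pair could be shared.

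App and its relative Aplp2 were both higher in BMDM, but BSM replicate 1 departed from the other microglia in opposite directions. App was at 9.90, 15.7 and 12.6 FPKM in BMDM and at 6.77, 3.07 and 2.69 in BSM. BSM replicate 1 was thus the highest microglial library for App, yet it remained below the lowest monocyte library. The mean was 12.7 ± 2.90 in BMDM and 4.18 ± 2.25 in BSM (SD, n = 3), a 3.04-fold difference with a log2 fold change of 1.47 (SE 0.34, adjusted p = 0.0084). Aplp2 was at 15.7, 17.2 and 15.2 FPKM in BMDM and at 2.37, 6.02 and 6.34 in BSM, where replicate 1 was the lowest. Its means of 16.1 ± 1.03 and 4.91 ± 2.21 differ 3.27-fold, with a log2 fold change of 1.61 (SE 0.33, adjusted p = 0.0051). ALEXA-Seq gave log2 fold changes of 1.56 for App (adjusted p = 0.029) and 1.66 for Aplp2 (adjusted p = 0.0087). The ALEXA-Seq call of App was lost in 10 of 17 alternatives, among them the leaving out of any library but BSM replicate 1 (adjusted p = 0.050 to 0.10). The ratio of App to Aplp2 within a library was 0.63, 0.91 and 0.82 in BMDM and 2.86, 0.51 and 0.42 in BSM, so the cell types overlapped in it. By FPKM the 95% confidence interval of the log2 fold change was 0.68 to 2.26 for App and included the median of all genes. That of Aplp2 began at 0.84, just above it. In ALEXA-Seq the intervals of App (0.48 to 2.64) and Aplp2 (0.82 to 2.51) both included the median there.

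Neither of the alpha-secretases tested passed on the values as deposited, but both did after scaling. Adam10 was at 10.8, 12.7 and 15.3 FPKM in BMDM and at 21.3, 17.5 and 21.4 in BSM, so every BSM library lay above every BMDM library. Its log2 fold change of -0.60 (SE 0.23, 95% confidence interval -1.14 to -0.06) had an unadjusted p-value of 0.033 but an adjusted p-value of 0.058. In ALEXA-Seq the libraries overlapped, since BSM replicate 1 (156) lay among the BMDM libraries (144 to 194), and the log2 fold change was -0.31 (95% confidence interval -0.96 to 0.35). Adam17, which encodes another sheddase with alpha-secretase activity, was not called either (log2 fold change -0.53, adjusted p = 0.083). It was at 18.9, 22.2 and 21.4 FPKM in BMDM and 37.4, 28.7 and 26.2 in BSM, and the ratio of Adam17 to Adam10 within a library was 1.63 on average in BMDM and 1.54 in BSM, with overlap. Under each of the 3 scalings described below Adam10 (log2 fold change -1.84 to -1.37) and Adam17 (-1.80 to -1.31) were both called as higher in BSM.

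Psen2 was the lowest member, at 0.55, 1.26 and 0.99 FPKM in BMDM and 0.87, 0.70 and 0.21 in BSM. Its libraries overlapped, and it reached an FPKM of 1 in BMDM replicate 2 alone. In ALEXA-Seq it was at 7.57, 20.4 and 12.7 in BMDM and at 14.5, 8.80 and 2.89 in BSM, again with overlap and below the genes tested. The means differed 1.57-fold towards BMDM by FPKM. When the minimum was lowered to an FPKM of 1 or dropped, so that Psen2 entered the fit, its log2 fold change of 0.29 was not called (adjusted p = 0.39 and 0.76), nor was that of 0.70 in ALEXA-Seq (0.41 and 0.76).

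Bin1 was the member with the largest difference towards BSM in both tables as deposited. It was at 0.44, 1.68 and 0.82 FPKM in BMDM and at 2.96, 7.43 and 6.45 in BSM. All microglial libraries lay above all monocyte libraries, and BSM replicate 1 was the lowest of the microglia. The means of 0.98 ± 0.63 and 5.61 ± 2.35 (SD, n = 3) differ 5.73-fold, and the log2 fold change was -1.71 (SE 0.38, adjusted p = 0.0065). ALEXA-Seq gave -2.78 (SE 0.54, adjusted p = 0.0062), a wider value for a gene whose monocyte FPKM lay near the 1 that is added before the logarithm. Bin1 reached the FPKM of 3 required for testing in BSM libraries alone, so its entry into the test rests on the group where it was high. With no minimum its limma call was lost (adjusted p = 0.088 by FPKM and 0.073 in ALEXA-Seq).

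Picalm was the most abundant member in BSM. It was at 33.6, 18.6 and 32.5 FPKM in BMDM and at 35.1, 67.9 and 75.1 in BSM. BSM replicate 1 lay only just above the highest BMDM library, whereas BSM replicates 2 and 3 were well above all of them. The difference of the means, 28.2 ± 8.34 against 59.3 ± 21.3 (SD, n = 3), was 2.10-fold, with a log2 fold change of -1.02 (SE 0.36, adjusted p = 0.045), and ALEXA-Seq gave -1.21 (adjusted p = 0.025). The FPKM call rests on every library but BSM replicate 1. It was lost without each BMDM library in turn (adjusted p = 0.069, 0.14 and 0.080 without replicates 1, 2 and 3) and without BSM replicate 2 (0.12) or 3 (0.13). Without BSM replicate 1 the log2 fold change was -1.35 (adjusted p = 0.0064).

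Inpp5d differed in size according to a single library. It was at 4.73, 7.36 and 6.17 FPKM in BMDM, but at 53.2, 12.5 and 11.1 in BSM. The 3 BSM libraries all lay above the BMDM libraries, and replicate 1 was 4.505 times the mean of the other BSM libraries, a ratio exceeded by 253 of the 6364 genes tested. ALEXA-Seq showed the same departure, with 1182 in BSM replicate 1 beside 265 and 228. Over all libraries the means differed 4.21-fold and the log2 fold change was -1.56 (SE 0.55, adjusted p = 0.043). Without BSM replicate 1 the difference was 1.94-fold, and the log2 fold change of -0.87 kept its call (adjusted p = 0.013). Without BMDM replicates 1, 2 or 3 the call was lost (adjusted p = 0.13, 0.094 and 0.11).

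Grn was nearly even on the values as deposited. It was at 26.0, 36.6 and 33.4 FPKM in BMDM and at 24.0, 28.5 and 25.9 in BSM, and the groups overlapped. The log2 fold change was 0.27 (95% confidence interval -0.26 to 0.80, adjusted p = 0.34), and in ALEXA-Seq it was -0.005 (95% confidence interval -0.49 to 0.48, adjusted p = 0.99). Grn was also the member with the smallest spread among the BSM libraries, with a coefficient of variation of 8.75%, against 93.4% for Inpp5d.

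Of the 8 members tested, 7 had no overlap between the cell types by FPKM, where 66.8% of all genes tested had none, and 6 had none in ALEXA-Seq, where 66.1% had none. Bin1, counted here, entered the FPKM test through BSM libraries alone. With 3 libraries against 3, the smallest two-sided p-value that exact permutation allows for 1 gene is 0.1.

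**Figure D2:**
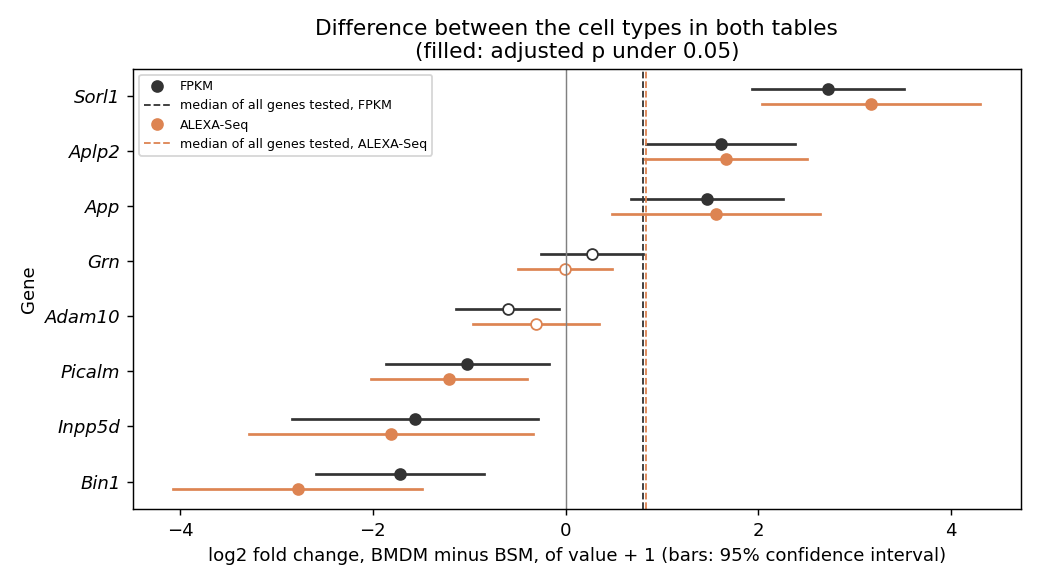
Log2 fold change (BMDM minus BSM, value + 1) of the 8 members tested, with the 95% confidence interval of the limma fit, by FPKM (black) and ALEXA-Seq (orange), filled where the adjusted p-value is under 0.05. Dashed lines mark the median of all genes tested (0.81 and 0.84). The points of Sorl1, Aplp2 and App alone lie to the right of these medians.

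Because the summed FPKM differed between the cell types, the members were compared again after scaling the libraries to each other. Sorl1 was higher in BMDM, and Bin1, Inpp5d and Picalm were higher in BSM, under all 3 scalings tried. The other members changed their call. With quantile normalization, which moved the median of all genes to 0.02, Adam10 was called as higher in BSM (log2 fold change -1.37, adjusted p = 0.0019), and App (0.77, adjusted p = 0.11) and Aplp2 (0.81, adjusted p = 0.065) no longer passed. Upper quartile scaling moved the median to 0.14 and gave the same calls. With the same sum in every library, which moved the median to -0.22, Grn turned to -1.002 and was called as higher in BSM (adjusted p = 0.0055), and App and Aplp2 dropped to 0.33 and 0.45. In ALEXA-Seq Grn was called as higher in BSM under all 3 scalings, with log2 fold changes of -0.74 by upper quartile (adjusted p = 0.015), -0.70 by quantile normalization (adjusted p = 0.024) and -1.29 with the same sum (adjusted p = 0.0013). The counts were 1 member towards BMDM and 4 towards BSM by upper quartile (21.7% and 16.5% of all genes) and by quantile normalization (21.7% and 19.3%), and 1 and 5 with the same sum (15.3% and 24.9%).

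**Figure D3:**
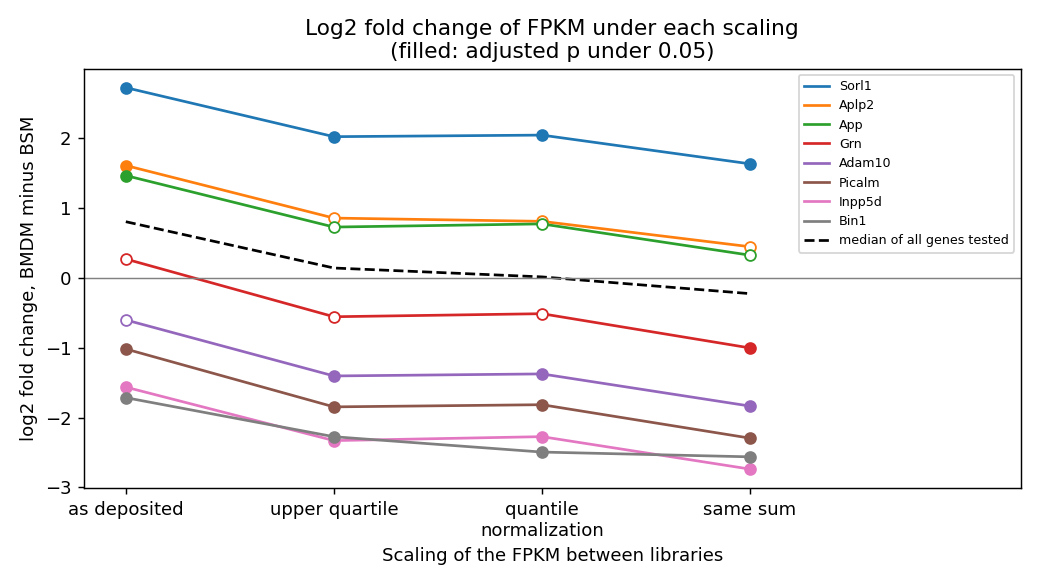
Log2 fold change of FPKM (BMDM minus BSM) of each member as deposited and after upper quartile scaling, quantile normalization and scaling to the same sum, filled where the adjusted p-value is under 0.05, with the median of all genes tested as a dashed line. The lines move down nearly in parallel, Grn crosses 0, and Sorl1, Bin1, Inpp5d and Picalm stay filled on their side of 0.

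The ratio of a pair of genes within a library does not change with any factor that scales the whole library. Of the 36 pairs of members, 25 had ratios that did not overlap between the cell types, and of the 28 pairs without Psen2 it was 21 (22 in ALEXA-Seq). Over all pairs of genes tested that were above 0 in every library, 56.3% had no overlap (58.8% in ALEXA-Seq). Each pair reached an exact two-sided p-value of 0.1 at best, or 0.14 after adjustment over the 36 pairs, so that none could pass the threshold.

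Inpp5d, Adam10 and Picalm relative to Sorl1 separated the cell types by wide margins. Aplp2 relative to Sorl1 did not, at 0.91, 0.78 and 0.74 in BMDM and 0.56, 4.63 and 3.90 in BSM, and it overlapped in ALEXA-Seq too. Inpp5d was 0.27, 0.34 and 0.30 times Sorl1 in BMDM and 12.6, 9.61 and 6.85 times Sorl1 in BSM. Adam10 was 0.62, 0.58 and 0.74 times Sorl1 in BMDM and 5.05, 13.4 and 13.2 times in BSM. For Picalm the ratio was 1.94, 0.85 and 1.57 in BMDM and 8.33, 52.1 and 46.2 in BSM. App relative to Adam10, the precursor relative to its main sheddase, was 0.92, 1.23 and 0.82 in BMDM and 0.32, 0.18 and 0.13 in BSM. By contrast the pairs Adam10 with Picalm, Adam10 with Inpp5d, Bin1 with Picalm, Bin1 with Inpp5d and Picalm with Inpp5d overlapped between the cell types by FPKM, of which Adam10 with Picalm and Adam10 with Inpp5d did not overlap in ALEXA-Seq.

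**Figure D4:**
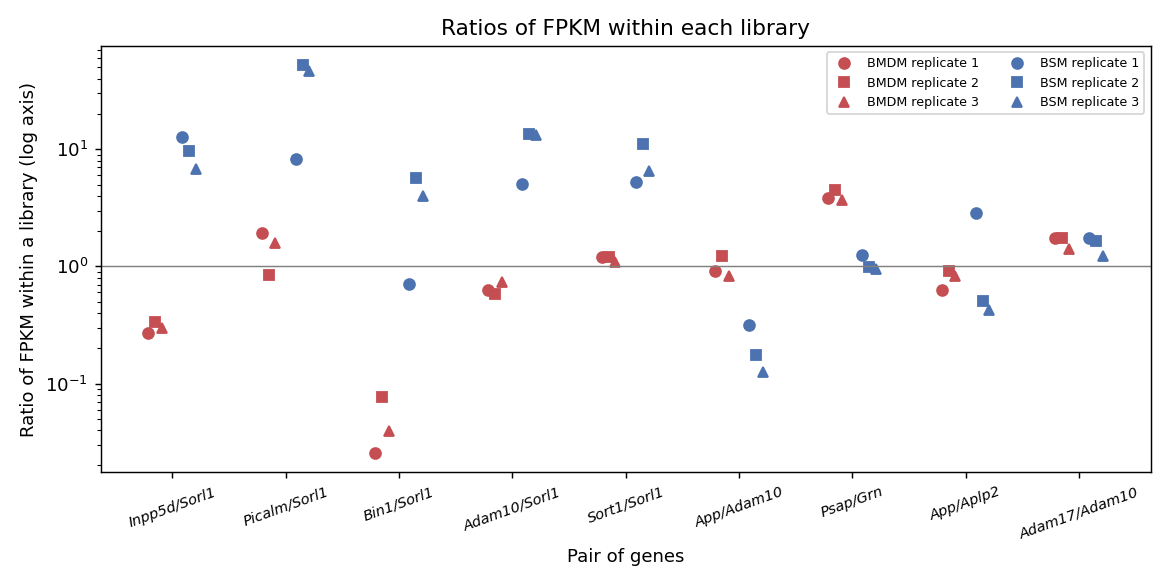
Ratio of FPKM (log axis) of 9 gene pairs within each BMDM library (red) and BSM library (blue), with a marker shape for each replicate number and a line at equal levels. The ratios to Sorl1 that are shown and that of Psap to Grn separate the cell types, while App to Aplp2 and Adam17 to Adam10 overlap.

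FPKM is scaled by length, so the members can also be ordered within a cell type. In BMDM the order of mean FPKM was Grn (32.0), Picalm (28.2), Sorl1 (20.0), Aplp2 (16.1), Adam10 (12.9), App (12.7), Inpp5d (6.09), Bin1 (0.98) and Psen2 (0.93). Neighbours overlapped over the libraries except Sorl1 with Aplp2, App with Inpp5d, and Inpp5d with Bin1. In BSM the order was Picalm (59.3), Grn (26.1), Inpp5d (25.6), Adam10 (20.0), Bin1 (5.61), Aplp2 (4.91), App (4.18), Sorl1 (2.38) and Psen2 (0.59). There the neighbours without overlap were Picalm with Grn, Adam10 with Bin1, and Sorl1 with Psen2. The third place of Inpp5d rests on BSM replicate 1, without which its mean was 11.8, below that of Adam10 (19.4). Among all genes of the table, Picalm ranked 142 in BSM and 658 in BMDM, and Sorl1 ranked 3949 in BSM and 946 in BMDM.

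The sequences before the RefSeq starts of Inpp5d, Picalm and Sorl1 are given because these members kept their direction and call under every scaling by FPKM. A window of 250 bases before each start was taken from RefSeq (build GRCm38.p6, and not the mm9 build of the expression values) for 8 members. No sequence is given for Bin1, and for Sorl1 the first of its 2 windows is given. Capitals mark GAGGAAGT, a core of sites of the myeloid factor PU.1 (Spi1), or CACGTG, the E-box bound by factors such as Tfeb, each searched on both strands. The motifs were picked with these sequences in view, and a match is only a description.
Inpp5d, chr1:87620062-87620311, + strand: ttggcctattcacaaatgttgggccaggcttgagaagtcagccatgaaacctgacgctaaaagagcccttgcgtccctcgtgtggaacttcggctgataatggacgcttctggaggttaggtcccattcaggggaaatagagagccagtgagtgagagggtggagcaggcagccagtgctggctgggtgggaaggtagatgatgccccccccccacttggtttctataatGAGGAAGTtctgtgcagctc
Picalm, chr7:90129963-90130212, + strand: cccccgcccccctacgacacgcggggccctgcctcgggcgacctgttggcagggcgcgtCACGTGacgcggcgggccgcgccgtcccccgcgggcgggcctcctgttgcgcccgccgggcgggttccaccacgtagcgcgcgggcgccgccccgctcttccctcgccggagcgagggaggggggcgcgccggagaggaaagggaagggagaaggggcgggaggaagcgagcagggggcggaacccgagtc
Sorl1, chr9:42124298-42124547, - strand: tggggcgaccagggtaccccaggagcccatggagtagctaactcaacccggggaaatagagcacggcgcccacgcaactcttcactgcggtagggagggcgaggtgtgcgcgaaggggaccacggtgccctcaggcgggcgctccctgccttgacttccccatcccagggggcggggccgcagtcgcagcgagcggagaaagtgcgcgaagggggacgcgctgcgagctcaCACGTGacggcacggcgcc

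GAGGAAGT was found once, beginning 20 bases before the start, in Inpp5d and in none of the other members whose windows were read. It was found in 2.44% of 32851 windows, which leave out the chromosome of Bin1. CACGTG was found in the windows of Adam10 (beginning 64 bases before the start) and Picalm (191). It was also found in the first of the 2 windows of Sorl1 (19) and in 1 of the 2 windows of Psen2. Of the same 32851 windows, 6.02% held it. The Inpp5d window held 5 CpG dinucleotides and that of Picalm 39, the fewest and the most among the first windows of the 8 members. Spi1, listed under its older symbol, was at 2.16, 5.24 and 3.15 FPKM in BMDM and 3.07, 1.65 and 1.74 in BSM, with overlap and without a call (adjusted p = 0.24).

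The remaining genes of the secretases were mostly low by FPKM. Of 14 genes of the APP family and the secretases, 6 were tested by FPKM. App, Aplp2 and Aph1a (50%, beside 45.3% of all genes) were higher in BMDM and none was higher in BSM (9.22% of all genes). The median log2 fold change was 0.89 beside 0.81 over all genes. Under each of the 3 scalings no gene of this list was called towards BMDM (15.3% to 21.7% of all genes). Adam10 and Adam17 were called towards BSM (16.5% to 24.9% of all genes). In ALEXA-Seq 8 were tested and 3 (37.5%, beside 37.1% of all genes) were called towards BMDM, namely App, Aplp2 and Psenen, and none towards BSM. Aplp1, the neuronal member of the App family, was at most at 0.02 FPKM in any library. Bace1, which encodes beta-secretase, was between 0.10 and 0.47 FPKM in all libraries, and Bace2 was listed at 0 throughout. In ALEXA-Seq, Bace1 was among the genes tested, at 21.1 to 40.9 in all libraries, and was not called (adjusted p = 0.74). Psenen, a small subunit of gamma-secretase, was at most at 1.16 FPKM, but in ALEXA-Seq it was at 158, 244 and 230 in BMDM and 64.9, 84.0 and 50.3 in BSM (log2 fold change 1.66, adjusted p = 0.0041). The tables thus differ on which of these genes were expressed enough to be tested.

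Among the 10 genes of amyloid-beta degradation, 6 were tested. Of these, 3 (50%, beside 45.3% of all genes) were higher in BMDM and 2 (33.3%, beside 9.22%) in BSM by FPKM as deposited. Ctsd, the lysosomal protease cathepsin D, was at 24.3, 40.1 and 22.9 FPKM in BMDM and at 525, 387 and 248 in BSM (log2 fold change -3.67, adjusted p = 1.1e-04). Plau, which encodes urokinase, was also higher in BSM (log2 fold change -1.96, adjusted p = 0.0012). Ece1, an endothelin-converting enzyme that also cleaves amyloid-beta, was at 4.23, 4.23 and 4.28 FPKM in BMDM and 0.43, 0.53 and 0.70 in BSM (log2 fold change 1.76, adjusted p = 7.2e-04). These 3 genes were called in both tables and under every scaling. In ALEXA-Seq 5 genes of the list were tested and no others were called. There 1 (20%, beside 37.1% of all genes) was higher in BMDM and 2 (40%, beside 10.9%) in BSM. Under each of the 3 scalings of FPKM, Ece1 was the only gene of the list called towards BMDM (15.3% to 21.7% of all genes). Of the 12 APP adaptors and BRI proteins only Apbb1ip and Itm2b were tested, and neither was called by FPKM as deposited. Both were called as higher in BSM by upper quartile (16.5% of all genes) and with the same sum (24.9%), and Apbb1ip with quantile normalization (19.3%). In ALEXA-Seq 4 were tested, of which Apbb1ip (log2 fold change -0.71, adjusted p = 0.016) and Apbb2 (-4.44, adjusted p = 0.0015) were higher in BSM and Apba1 (2.10, adjusted p = 0.0027) in BMDM. Of the 6 tetraspanins that escort Adam10, 3 were tested and none was called as deposited. Under the 3 scalings Tspan14 was called towards BSM (16.5% to 24.9% of all genes). Without BSM replicate 1 Tspan5 and Tspan17 were called towards BMDM (50.2% of all genes).

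The partners of Sorl1 were mostly higher in BMDM as deposited. Of the 13 VPS10 receptors and retromer genes, Sorl1 included, 10 were tested and 9 (90%, beside 45.3% of all genes) were higher in BMDM. Their median log2 fold change was 1.35 beside 0.81 over all genes. In ALEXA-Seq 8 of them were called too (88.9% of those tested, beside 37.1% of all genes). Rab7, a small GTPase of late endosomes, was at 79.4, 70.4 and 77.6 FPKM in BMDM and at 6.45, 20.6 and 15.9 in BSM (log2 fold change 2.46, adjusted p = 0.0015). Snx1 (1.81), Vps26b (1.47) and Snx27 (1.36), all parts of the retromer or its sorting nexins, differed less. With all libraries at the same sum only Sorl1 and Rab7 were still called (15.3% of all genes towards BMDM). With quantile normalization it was Sorl1, Rab7 and Snx1 (21.7%). Sort1, a relative of Sorl1 that takes up progranulin, was at 20.8, 26.4 and 22.6 FPKM in BMDM and 21.9, 14.5 and 10.5 in BSM and was not called (adjusted p = 0.12), though without BSM replicate 1 it was (log2 fold change 0.86, adjusted p = 0.011). The ratio of Sort1 to Sorl1 within a library was 1.17 on average in BMDM and 7.60 in BSM, without overlap.

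While Grn was not called as deposited, most of the genes listed as its partners were. Of 9 genes listed, Grn among them, 5 (55.6%) were higher in BMDM and 2 (22.2%) in BSM by both tables. Most of those higher in BMDM are granule genes that also stand among the granulocyte markers, Elane and Mpo among them. Over all genes tested it was 45.3% and 9.22% by FPKM, and 37.1% and 10.9% in ALEXA-Seq. By FPKM 4 and 2 were called under upper quartile scaling (21.7% and 16.5% of all genes) and quantile normalization (21.7% and 19.3%). With the same sum it was 4 and 3, Grn included (15.3% and 24.9%). Psap, which encodes prosaposin, a lysosomal partner of progranulin, was at 99.3, 165 and 123 FPKM in BMDM and 30.2, 28.3 and 24.6 in BSM (log2 fold change 2.15, adjusted p = 3.4e-04). The ratio of Psap to Grn was 3.81, 4.51 and 3.69 in BMDM and 1.26, 0.99 and 0.95 in BSM. Ctsl, which encodes cathepsin L, a protease that cuts progranulin, was at 2.55, 3.43 and 2.63 FPKM in BMDM and 40.7, 41.7 and 34.3 in BSM (log2 fold change -3.37, adjusted p = 2.4e-05). Tmem106b, a lysosomal membrane protein, was higher in BSM (log2 fold change -0.68, adjusted p = 0.046), a call lost without BSM replicate 1 (-0.61, adjusted p = 0.051). Elane and Mpo, granule enzymes of myeloid precursors and neutrophils that also stand among the granulocyte markers, were highest in BMDM replicate 2. Elane was at 9.75, 56.0 and 10.7 FPKM in BMDM and listed at 0 in BSM, and Mpo was at 32.7, 181 and 67.1 in BMDM and at most at 0.01 in BSM. Slpi, a secreted inhibitor that shields progranulin from elastase, was at 3.21, 3.52 and 5.23 FPKM in BMDM and listed at 0 in BSM.

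Among the endocytic partners of Bin1 and Picalm, these members were the only genes called towards BSM as deposited. Of the 24 genes in the list, 14 were tested, of which 6 (42.9%, beside 45.3% of all genes) were higher in BMDM and 2 (14.3%, beside 9.22%) in BSM, with a median log2 fold change of 0.59. It was 2 towards BMDM and 3 towards BSM by upper quartile (21.7% and 16.5% of all genes) and by quantile normalization (21.7% and 19.3%). With the same sum it was 1 and 3 (15.3% and 24.9%). The third gene towards BSM was Cltc, the clathrin heavy chain. Eps15, an endocytic adaptor, was at 26.7, 31.9 and 33.5 FPKM in BMDM and 8.27, 9.82 and 10.0 in BSM (log2 fold change 1.61, adjusted p = 7.4e-04). Bin3 (1.94), Rin3 (1.32) and Clta (1.23), the last encoding a clathrin light chain, were also higher in BMDM, but Rin3 and Clta lost the call under all 3 scalings, and Eps15 with the same sum. Bin2, a relative of Bin1 in blood cells, was at 4.12, 7.22 and 4.11 FPKM in BMDM and 2.89, 3.95 and 3.25 in BSM and was not called (adjusted p = 0.18). Snap91, the neuronal relative of Picalm, was at most at 0.01 FPKM.

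Of 19 phosphoinositide enzymes and adaptors near Inpp5d, 13 were tested, 4 of which (30.8%, beside 45.3% of all genes) were higher in BMDM and 3 (23.1%, beside 9.22%), Inpp5d among them, in BSM. By upper quartile it was 0 and 4 (21.7% and 16.5% of all genes) and by quantile normalization 1 and 4 (21.7% and 19.3%). With the same sum it was 0 and 5 (15.3% and 24.9%), so the background moved towards BSM as well. Inppl1, which encodes SHIP2, the relative of SHIP1, was between 0.03 and 0.47 FPKM in all libraries. Pik3r1, a regulatory subunit of phosphoinositide 3-kinase, was at 8.27, 6.24 and 8.41 FPKM in BMDM and 14.6, 12.6 and 15.6 in BSM (log2 fold change -0.83, adjusted p = 0.018), and Pik3ap1, an adaptor of the same kinase, was also higher in BSM (-0.97, adjusted p = 0.019). Both kept this call under the 3 scalings. Inpp5f (2.03), Pik3cd (1.59) and Plcg2 (1.23) were higher in BMDM, and none of them was called with the same sum.

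Other genes near Alzheimer risk loci went in both directions. Of 32 genes, 21 were tested, 8 of which (38.1%, beside 45.3% of all genes) were higher in BMDM and 7 (33.3%, beside 9.22%) in BSM, with a median log2 fold change of 0.28. It was 4 and 9 by upper quartile (21.7% and 16.5% of all genes) and by quantile normalization (21.7% and 19.3%). With the same sum it was 3 and 11 (15.3% and 24.9%). The list shares Cd2ap, Rin3, Plcg2 and Tmem106b with the lists above. Cd33, an inhibitory receptor of myeloid cells, was at 2.99, 2.28 and 2.40 FPKM in BMDM and at 17.9, 27.3 and 23.3 in BSM (log2 fold change -2.73, adjusted p = 9.6e-05). Abi3 (-2.50) and Trem2 (-1.95), a lipid-sensing receptor of microglia, were also higher in BSM, and Adamts1, a secreted protease, was at 27.3, 35.7 and 25.7 FPKM in BSM and listed at 0 in BMDM. Tyrobp, the signalling adaptor of Trem2, was at 281, 395 and 347 FPKM in BMDM and at 52.8, 129 and 104 in BSM (log2 fold change 1.91, adjusted p = 0.0028), a call lost with the same sum (0.60, adjusted p = 0.18). Ms4a6c (3.49), Lilrb4 (2.68) and Ms4a6b (2.53) were higher in BMDM under every scaling.

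**Figure D5:**
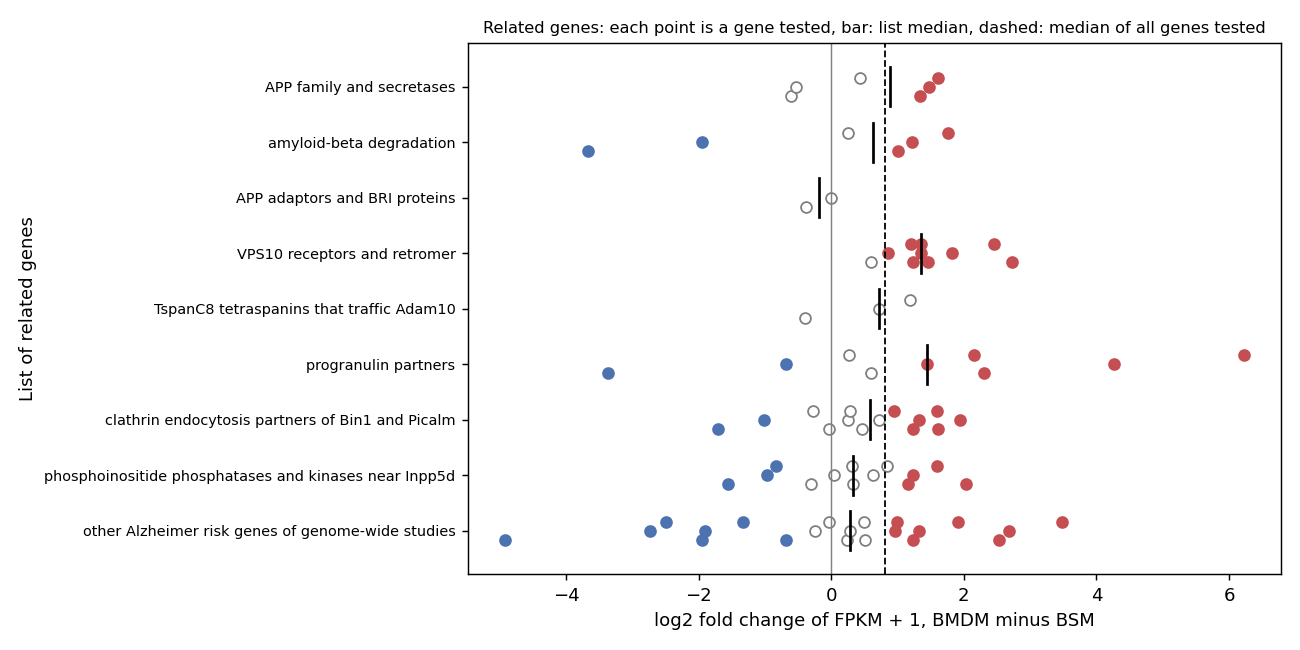
Log2 fold change of FPKM + 1 (BMDM minus BSM) of each gene tested in 9 lists of related genes, red where called as higher in BMDM, blue where called as higher in BSM and open where not called, on the values as deposited. A bar marks the list median and the dashed line the median of all genes tested (0.81). The VPS10 and retromer list holds no gene called towards BSM, and the list of other risk genes is called in both directions.

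The genes whose levels over the 6 libraries were nearest to those of Sorl1, by Euclidean distance on log2(FPKM + 1) among 6364 genes, were Psat1 (0.75), Myo5a (0.85) and Lmo4 (0.91). Those nearest to Bin1 were Spire1 (0.35), Fmnl3 (0.42) and Eef2k (0.49). Spire1 was at 0.33, 1.90 and 0.68 FPKM in BMDM and 3.65, 6.58 and 6.10 in BSM. As for Bin1, BMDM replicate 2 was the highest monocyte library and BSM replicate 1 the lowest microglial library. This likeness follows from the choice by distance and is only a description.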

How the data were processed

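Total RNA of sorted cells was amplified (Ovation RNA-Seq) and sequenced as paired ends. Per the labels and the submitters' processing notes, the authors aligned the reads with TopHat 1.3.1 and Bowtie 0.12.7 after CASAVA 1.7.0 on mm9 and deposited gene FPKM values from Cufflinks 1.0.3. They also deposited an ALEXA-Seq expression signal per gene on a linear scale, whose unit is not given in the sources used here. Neither table holds reads, so the depth behind a value is unknown. Starts in the FPKM table count from 0 and are printed from 1.

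For each gene, log2(value + 1) was compared between 3 BMDM and 3 BSM libraries with limma 3.58.1 in R 4.3.3 (empirical Bayes with a mean-variance trend) for the 6364 genes that reached 3 FPKM in 1 or more libraries, and the same number of genes with the highest ALEXA-Seq signal. P-values were adjusted by Benjamini-Hochberg over all of them. The fit was tested on simulated data. Each library is a pooled set of mice, so p-values measure the spread between sets. The replicate numbers were not treated as pairs in the main fit. The genes and lists were chosen with earlier results of these data known. Named were all members, up to 4 genes per list and direction called in both tables, relatives of members (1 of these is not reported here), and the nearest genes of Sorl1 and Bin1; Aph1a, Psenen, Bace1, Bace2, Apba1, Apbb1ip, Apbb2, Itm2b, Tspan5, Tspan14, Tspan17, Cltc and Spi1 were named after their values were seen. Other symbols were matched through RefSeq synonyms. Alternatives were a pseudocount of 0.1, a minimum of 1 or none, 3 scalings, no trend, library weights, replicate block, sex, female libraries only, and leaving out each library. Tables and plots used Python 3.11.15, pandas 2.3.3, numpy 2.4.6, scipy 1.17.1 and matplotlib 3.10.9.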

Additional observations from a re-analysis of the deposited data

How the results depend on the processing

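The count of members called, 6 in each table, was within 1.5 times of that under all alternatives except no minimum on low values, where 1 (Sorl1) was called in each table, and the leaving out of single libraries, which gave 4 to 7 by FPKM and 3 to 6 by ALEXA-Seq (3 without BMDM replicate 2 or 3). Members higher in BMDM, 3 in each table, numbered 1 with no minimum, upper quartile scaling, quantile normalization and the same sum, in both tables, and 3 by FPKM or 2 to 3 by ALEXA-Seq without single libraries. Members higher in BSM, 3 in each table, numbered 1 by FPKM with a pseudocount of 0.1, 0 with no minimum in either table, 5 with the same sum in either table, and 5 by ALEXA-Seq with upper quartile scaling and quantile normalization. Without single libraries they numbered 1 to 4 by FPKM and 1 to 3 by ALEXA-Seq, with 1 without each BMDM replicate by FPKM and without BMDM replicate 2 or 3 by ALEXA-Seq. The cause was not tested, but no minimum adds many low genes to the fit. Members without overlap numbered 7 by FPKM, 7 with upper quartile scaling and quantile normalization, and 6 with the same sum or in ALEXA-Seq. Without single libraries they numbered 7 to 8, but leaving out a library cannot add an overlap, so this count could not fall. Grn reversed by FPKM with upper quartile scaling (-0.56), quantile normalization (-0.51) and the same sum (-1.002), and by ALEXA-Seq, from a value near 0, with female libraries only (0.13) and without single libraries (-0.10 to 0.13). Sorl1 kept its direction and its call in 17 of 17 alternatives in both tables, Bin1 lost its call in 1 of them in each table (no minimum).

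Correlations of the deviations of same-numbered libraries were -0.02, -0.01 and 0.13 by FPKM, and those of differently numbered libraries -0.11 to 0.07. So few libraries cannot decide whether the replicate numbers pair them. With the replicate number as a block, 4 members were called in each table, 1 of them towards BSM by FPKM, since Picalm (adjusted p = 0.061) and Inpp5d (0.051) lost the call. Read depth per gene is unknown, which limits what can be said of Psen2 and of other genes near 0.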

Other observations

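Markers of other brain cells were low in the microglia. The summed FPKM of 8 astrocyte markers was 9.54, 5.42 and 6.96 in BSM replicates 1 to 3 and 0.26 to 0.40 in BMDM, with Gfap listed at 0 in all BSM libraries, and that of 8 neuronal markers was at most 1.83 in BSM. The summed FPKM of 9 oligodendrocyte markers was 1.78 to 2.13 in BSM and 7.06 to 12.8 in BMDM, and that of 8 endothelial markers 1.31 to 2.92 in BSM and 2.32 to 3.87 in BMDM. For 8 lymphocyte markers it was 8.86 in BMDM replicate 2 and at most 1.93 in the other libraries, and for 6 perivascular macrophage markers it was 0.54, 4.28 and 2.39 in BSM and 1.77 to 2.76 in BMDM. BSM replicate 1 was thus the lowest microglial library for the perivascular macrophage markers. Their part in the levels of the 9 genes was not tested.

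The departure of BSM replicate 1 seen in Inpp5d was not confined to that gene. By FPKM, 253 of the 6364 genes tested had a larger ratio of BSM replicate 1 to the other BSM libraries. The genes nearest to Inpp5d over the 6 libraries were Sclt1, Thumpd3 and Pogz, which were chosen after the values were seen. The distance includes BSM replicate 1, so a high value there follows from the choice and shows nothing further. Their FPKM in BSM replicate 1 was 30.6, 45.0 and 37.7, beside 10.1 and 10.5 for Sclt1, 8.93 and 10.5 for Thumpd3, and 12.1 and 11.0 for Pogz in BSM replicates 2 and 3. Among the members, BSM replicate 1 was 2.87 times the mean of the other BSM libraries for Sorl1 and 2.35 times for App, and 0.38 times for Aplp2, 0.43 times for Bin1 and 0.49 times for Picalm.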
